A study of Mus musculus with 27 samples.

Results

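The genes described here build and maintain the primary cilium. They were chosen by name, with earlier results of these data known. The list holds 13 intraflagellar transport (IFT) proteins, 7 subunits of the BBSome, its chaperonin-like assembly factors and its GTPase. It also holds proteins of the transition zone, ciliary motors with the kinase Mak, and the Arl GTPases. Of 40 members, 38 were measured by 1 probe set each, out of 19301 genes with 1 symbol, and Arl6 and Arl13b were not analysed here. The primary cilium is a microtubule-based antenna of the cell surface. IFT-B trains pulled by kinesin-2 carry cargo outwards, IFT-A trains pulled by dynein-2 carry it back, and the BBSome moves membrane proteins along the same tracks. In photoreceptors the transition zone is drawn out into the connecting cilium, through which everything for the light-sensitive outer segment passes, and mutations in many of these genes cause retinal degeneration.

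Each of 27 arrays held RNA of cells sorted by fluorescence from adult mouse retina, with 3 arrays in each of 9 groups. Arrays of cones, starburst cells and their mixtures held 200 cells, while the sample titles give no cell number for Arc arrays. Cones came from the line Tg(Chrnb4-EGFP)1Gsat, and another amacrine population from Tg(Arc-EGFP)194Gsat/Mmcd, included as a batch control. Starburst amacrine cells (cholinergic interneurons) came from 129S6-Chat_tm1(cre)Lowl/J crossed with Rosa26-LSL-RFP, where Chat-driven Cre switches on the red reporter. A titration held 0, 50, 100, 150 and 200 cone cells, filled up to 200 with starburst cells, and 3 further mixtures, called X mixtures here, held 75, 157 and 183 cone cells with 125, 43 and 17 starburst cells. The labels give all groups a mixed FVB/N-Swiss Webster and C57BL/6J background, while the protocol says that only mice from a repository were such hybrids, that these carried a recessive photoreceptor degeneration and were used as F2 of a backcross into C57BL/6J, and that the other lines were already C57BL/6J. Retinas were pooled before sorting (2 with labelled cones and 6 with labelled starburst cells), cell type and mouse line cannot be told apart, and in a sorted sample neither can fewer cells of a type and less RNA per cell.

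The sorted cells were checked against lists of marker genes. The summed level of 6 cone markers (Opn1mw, Opn1sw, Gnat2, Arr3, Pde6h and Pde6c), as log2 of the sum on the linear scale, was 12.20 to 13.50 on pure cone arrays, 6.22 to 7.88 on pure starburst arrays and 5.62 to 7.43 on Arc arrays. The summed level of 6 starburst markers was 11.08 to 11.28 in pure starburst cells, 5.56 to 6.50 in pure cones and 5.22 to 5.58 in Arc cells. Slc18a3, Sox2 and Isl1 carried it, while Chat (4.08 in starburst cells, 3.04 in cones), Slc5a7 (3.68 and 2.84) and Megf10 (2.87 and 2.55) were dim there. Of 6 general amacrine markers 5 were measured, with a summed level of 9.49 to 9.77 on Arc arrays and 8.95 to 9.09 on pure starburst arrays. Some arrays stood apart. The summed cone marker level on the third array was 12.20 for pure cones, against 13.50 and 13.46 on the first and second. It was likewise 11.76 with 183 cones (13.42 and 13.32), 10.73 with 157 (13.14 and 13.02), 11.53 with 150 (13.06 and 13.13) and 9.22 with 75 (11.50 and 11.39). The mixture labelled with 75 cones, at 9.22 to 11.50, lay under the one labelled with 50, at 11.81 to 12.10. Rod photoreceptors also carry a connecting cilium, and 6 of 8 rod markers were measured, all with group means above the filter in each group. Their summed level was 11.40 to 12.21 on pure cone arrays (highest on the third), 9.37 to 10.38 on pure starburst arrays and 8.69 to 9.17 on Arc arrays. Sag was the brightest of them on each pure cone array (11.06, 11.02 and 10.95, against 8.10, 8.87 and 7.70 in starburst cells). Nrl and Pde6b also lay higher on all pure cone than on all pure starburst arrays. Gnat1 read 8.11, 8.28 and 10.41 in cones, against 7.42, 8.49 and 7.58 in starburst cells. Gnat1, Cnga1 and Gnb1 overlapped between these groups and were highest on the third pure cone array. Of 6 bipolar cell markers 5 were measured, with a summed level of 6.28 to 7.35 in pure cones, 5.10 to 6.36 in pure starburst cells and 5.14 to 5.39 in Arc cells. Of these, Cabp5 read 6.10, 5.22 and 5.62 in cones, against 2.72, 3.76 and 2.75 in starburst cells, while Trpm1 and Grm6 averaged under the filter in all 3 groups. Pcp2 overlapped, at 4.55, 4.58 and 6.56 in cones and 3.41, 5.63 and 3.78 in starburst cells. Prkca went the other way, averaging 2.26 in cones, 2.44 in starburst cells and 2.99 in Arc cells. By their means the 6 rod markers were thus higher in cones than in starburst cells, and Cabp5 was so on all arrays. The part of rods and bipolar cells in the results below was not tested. Of 6 genes of motile cilia, 1 had a mean above the filter in each of the pure cone, pure starburst and Arc groups, and their summed level was 5.11 to 5.17, 5.0 to 5.06 and 5.01 to 5.12 in that order.

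Levels are log2 values of the authors' RMA procedure, and a difference of 1 is a doubling. A gene was tested if it exceeded 2.83, the median of all values, on at least 3 arrays, which held for 12441 genes and 31 members. The other 7 measured members (Ift80, Ift172, Ift122, Bbs1, Rpgrip1l, Kif3b and Kif17) read 1.83 to 3.04 over all arrays. A gene was called at a limma adjusted p (Benjamini-Hochberg over all tested genes) under 0.05 with an absolute log2 difference of at least 1. Errors of differences are standard errors (SE) from the fit over all 27 arrays.

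Pure cones were first compared with pure starburst cells. In cones 6 of 31 tested members were called higher and 0 lower, where 2.64% of all tested genes were called higher and 5.79% lower. They were Bbs12, a chaperonin-like protein that helps to assemble the BBSome, Rpgrip1, which anchors the GTPase regulator Rpgr in the connecting cilium, the ciliary kinase Mak, the BBSome subunit Bbs9, the IFT-B protein Ift57 and the transition zone protein Cep290. At an adjusted p alone, with no minimum difference, limma called 9 members higher and 0 lower, against 4.40% and 9.69% of all genes. The median difference was 0.40 over the 31 members and -0.04 over all tested genes. Some members passed the filter only through arrays rich in cones, so these counts and medians are a description.

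**Figure D1:**
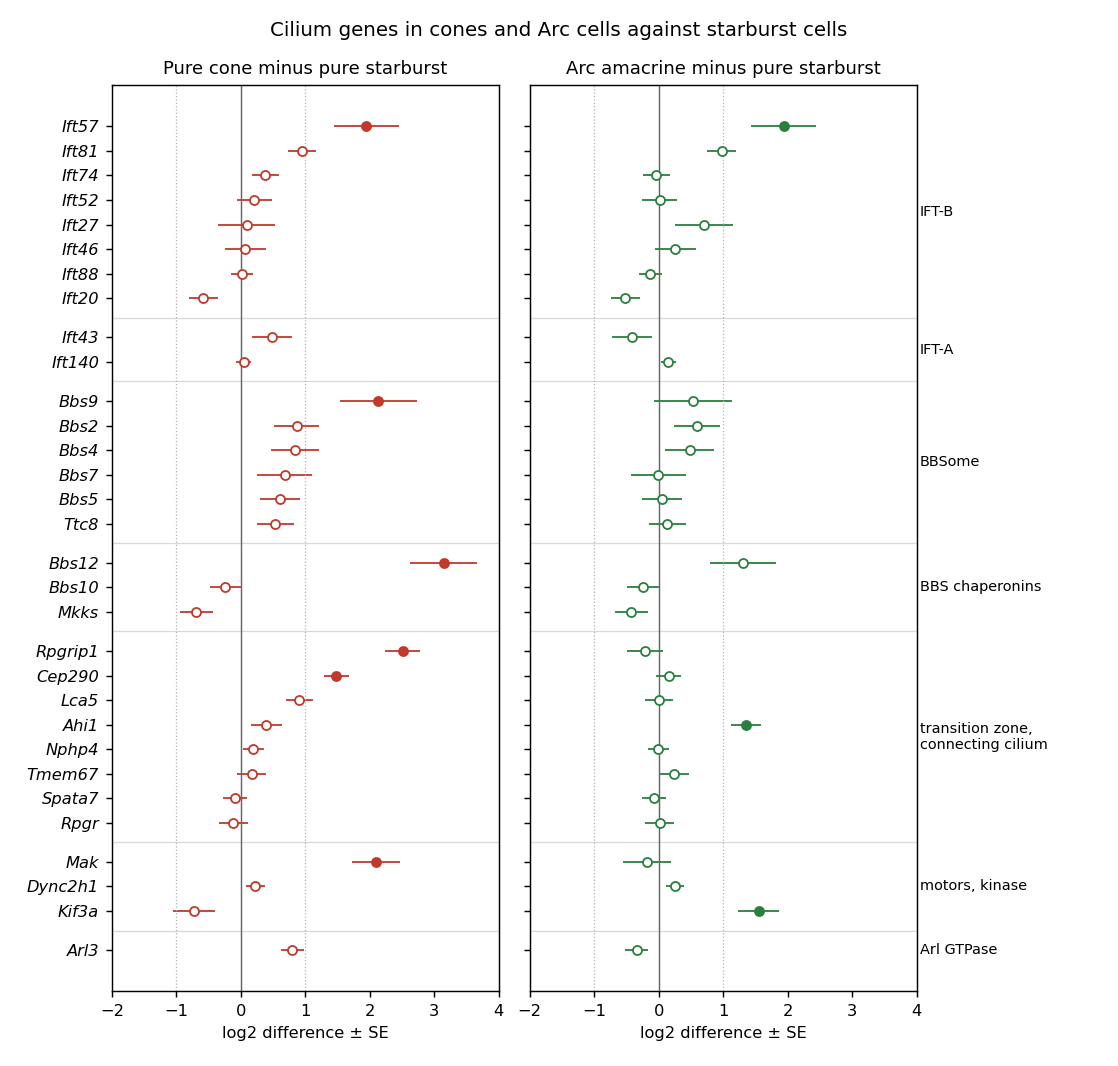
Log2 differences ± SE (3 arrays per group) of the 31 tested members, pure cone minus pure starburst on the left and Arc minus pure starburst on the right, grouped by role. Filled points were called, and dotted lines mark a difference of 1 either way. The BBSome subunits all lie right of 0 in cones, with Bbs9 at 2.13, while Kif3a lies at -0.73 in cones and at 1.55 in Arc cells.

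The promoters of 3 of these genes are shown because they hold motifs of factors known in this setting: GGATTA, the core bound by Crx and Otx homeobox proteins of photoreceptors, and a loose form of the X-box that RFX factors bind at ciliary genes, GTNNC and GNNAC with any 4 bases between them. Both strands of the 250 bases before the RefSeq gene start (GRCm38.p6) were searched, the X-box form reads the same on both strands, and matches are in capitals. The windows are chr14:52110653-52110902 (+) for Rpgrip1, chr13:41070466-41070715 (-) for the second listed start of Mak, and chr16:49699044-49699293 (+) for Ift57.
Rpgrip1: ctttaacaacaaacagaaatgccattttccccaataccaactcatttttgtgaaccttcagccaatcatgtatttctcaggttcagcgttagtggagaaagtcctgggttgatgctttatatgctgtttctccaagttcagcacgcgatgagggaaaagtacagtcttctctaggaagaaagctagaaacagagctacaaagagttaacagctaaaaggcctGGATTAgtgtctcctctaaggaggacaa
Mak: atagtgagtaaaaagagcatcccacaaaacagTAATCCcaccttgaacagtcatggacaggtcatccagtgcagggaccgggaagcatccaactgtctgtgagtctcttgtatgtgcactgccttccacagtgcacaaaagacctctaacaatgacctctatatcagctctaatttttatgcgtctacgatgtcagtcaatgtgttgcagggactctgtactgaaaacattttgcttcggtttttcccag
Ift57: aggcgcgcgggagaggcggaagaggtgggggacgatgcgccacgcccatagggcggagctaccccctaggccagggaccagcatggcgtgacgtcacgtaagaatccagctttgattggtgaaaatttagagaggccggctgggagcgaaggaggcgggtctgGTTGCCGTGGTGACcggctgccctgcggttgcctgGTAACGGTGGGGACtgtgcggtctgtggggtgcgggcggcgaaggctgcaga
The Rpgrip1 match lay at bases -28 to -23 from the start, the Mak match, on the opposite strand, at -218 to -213, and the Ift57 matches at -87 to -74 and -52 to -39. Promoters were found for 36 members. GGATTA was held by 3 of them (Bbs1, Mak and Rpgrip1), 8.33%, against 7.21% of all genes with a promoter and 6.72% of tested ones. The X-box form was held by 4 (Bbs1, Bbs7, Ift57 and Nphp4), 11.1%, against 6.75% of all and 7.76% of tested genes. Of these members, Bbs1 was not tested. Bbs12, Bbs9 and Cep290 held neither in this window, and a match is only a description of the letters.

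Among the BBS chaperonins, Bbs12 had the largest difference of all members. It read 7.84, 6.77 and 7.42 on pure cone arrays, against 3.65, 4.79 and 4.15 on pure starburst arrays. The groups lay far apart, and Bbs12 was higher in cones by 3.15 ± 0.52 (8.86-fold, adjusted p = 0.000174). The other tested chaperonin-like factors were not called. Bbs10 averaged 3.98 in cones and 4.22 in starburst cells (-0.24 ± 0.25, 0.595), and Mkks 5.57 and 6.26 (-0.69 ± 0.26, 0.0805).

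Within the transition zone, Rpgrip1 and Cep290 were called. Rpgrip1 read 6.05, 5.45 and 5.69 on pure cone arrays, against 3.30, 3.15 and 3.22 on pure starburst arrays, a difference of 2.51 ± 0.28 (5.69-fold, adjusted p = 1.2e-06). Cep290, which bridges microtubules and membrane and is a frequent cause of childhood blindness in humans, read 4.10, 3.49 and 3.43 in cones, against 2.31, 2.16 and 2.12 in starburst cells. All its starburst values lay under the filter, so that its difference of 1.48 ± 0.20 (2.79-fold, 1.6e-05) depends on the background there. Lca5 (lebercilin), another protein of the photoreceptor cilium, read 3.62, 3.59 and 3.22 in cones, against 2.63, 2.54 and 2.54 in starburst cells. The groups did not overlap, but the difference of 0.91 ± 0.21 (0.00539) stayed under the minimum for a call. It passed without pure cone replicate 3 (1.04, 0.00492) and without the third arrays of all groups (1.02, 0.0137). None of the remaining 5 tested genes of this class was called: Ahi1 by 0.40 ± 0.24, Nphp4 by 0.19 ± 0.16, Tmem67 by 0.17 ± 0.22, Spata7 by -0.09 ± 0.19 and Rpgr, the binding partner of Rpgrip1, by -0.11 ± 0.23. Rpgr read 3.08, 2.77 and 2.36 on pure cone arrays and 3.11, 2.87 and 2.57 on pure starburst arrays, in overlapping ranges near the filter.

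Mak, a kinase that in mice limits the length of the photoreceptor cilium, read 5.33, 5.19 and 4.15 on pure cone arrays, against 2.78, 2.84 and 2.78 on pure starburst arrays. Starburst values lay at the filter and varied by less than 0.1, while the third cone array was lower than the first and second, and the difference was 2.09 ± 0.38 (4.27-fold, adjusted p = 0.000449). Kif3a, a kinesin-2 motor subunit that also serves transport outside cilia, read 4.79, 3.80 and 4.28 in cones, against 5.13, 4.56 and 5.36 in starburst cells (-0.73 ± 0.32, 0.148, not called, with overlapping groups). The dynein-2 heavy chain Dync2h1 differed by 0.23 ± 0.14 (0.345). Arl3, the GTPase that unloads lipid-modified proteins in the cilium, read 11.02, 10.94 and 10.69 in cones, against 10.17, 10.02 and 10.07 in starburst cells. Its groups did not overlap, and its difference of 0.80 ± 0.18 (1.74-fold, 0.00374) stayed under the minimum for a call.

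**Figure D2:**
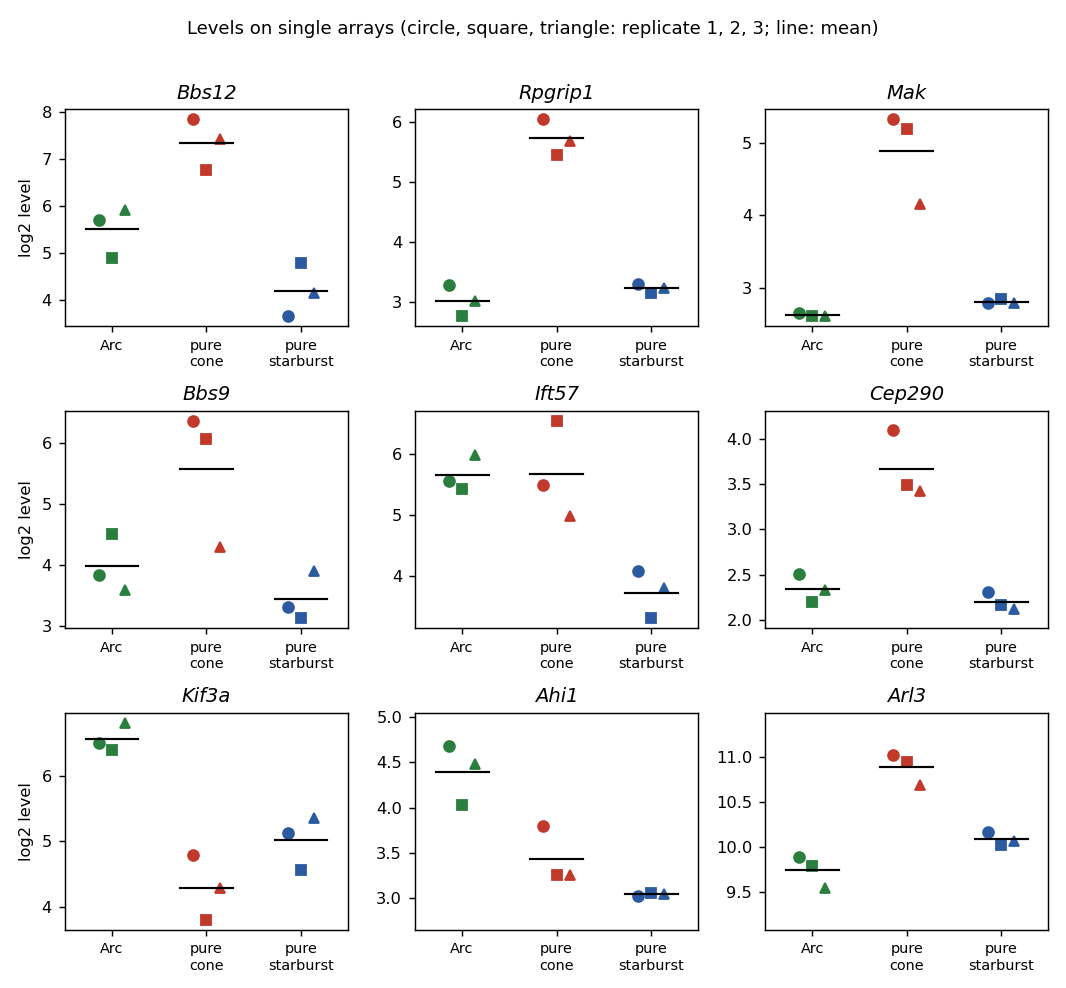
Log2 levels of 9 members on each Arc, pure cone and pure starburst array (3 per group), with the group means as lines; each panel has its own axis. Bbs12, Rpgrip1, Mak and Cep290 stand clear of both amacrine groups in cones, Kif3a and Ahi1 are highest in Arc cells, and Bbs9 and Mak are lowest on the third pure cone array.

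All 6 tested BBSome subunits had positive differences, but 1 was called. Of all tested genes, 45.5% had a positive difference and 2.64% were called higher. Bbs9 read 6.36, 6.07 and 4.30 on pure cone arrays, against 3.31, 3.13 and 3.90 on pure starburst arrays, a difference of 2.13 ± 0.60 (4.37-fold, adjusted p = 0.0186). The groups did not overlap, but the third cone array lay much nearer to the starburst arrays than the first and second did. The SD of Bbs9 between pure cone arrays, 1.12, was the largest of any tested member there. Its call was lost without pure cone replicate 1 (1.74, 0.0923) or 2 (1.88, 0.0769), without pure starburst replicate 1 (2.06, 0.0602) or 2 (1.97, 0.0704), and in a fit on the 6 arrays alone (0.0576). Bbs2 read 5.33, 5.11 and 5.84 in cones, against 3.98, 4.85 and 4.86 in starburst cells (0.86 ± 0.36, 0.116), and Bbs4 6.26, 5.64 and 4.99, against 4.70, 5.0 and 4.67 (0.84 ± 0.38, 0.154). Neither passed, although both were called after the values had been quantile-normalized again (1.12, 0.0397, and 1.10, 0.0294). Bbs7 differed by 0.68 ± 0.43 (0.340), Bbs5 by 0.61 ± 0.31 (0.212) and Ttc8, which is also a BBSome subunit, by 0.54 ± 0.28 (0.241).

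Of the genes of the transport trains themselves, 1 of 8 tested IFT-B and 0 of 2 tested IFT-A genes were called by limma (2 and 0 at an adjusted p alone). Of all tested genes, 2.64% were called higher in cones, and 4.40% at an adjusted p alone. Ift57, a peripheral IFT-B protein, read 5.48, 6.54 and 4.98 on pure cone arrays, against 4.07, 3.30 and 3.79 on pure starburst arrays, and was higher in cones by 1.95 ± 0.51 (3.86-fold, adjusted p = 0.0109). The groups did not overlap, but the call was lost without pure cone replicate 2 (1.51, 0.0751), and likewise without replicate 2 of the starburst arrays (1.74, 0.0550). Ift81, which with Ift74 binds tubulin cargo, read 4.83, 4.42 and 4.17 in cones, against 3.85, 3.43 and 3.30 in starburst cells. Its difference of 0.95 ± 0.22 (0.00525) came close to the minimum and passed it without replicate 3 of the pure cones (1.10) or replicate 1 of the starburst cells (1.11), with array weights (1.02) or after another quantile normalization (1.06). Its partner Ift74 differed by 0.38 ± 0.22 (0.277).

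No other train component was called. Ift88, a core subunit needed for cilia to form, read 3.57, 3.04 and 3.22 in cones, against 3.54, 3.33 and 2.91 in starburst cells (0.02 ± 0.18, 0.967). Ift140 of IFT-A differed by 0.04 ± 0.12 (0.867) and the IFT-B gene Ift46 by 0.07 ± 0.32 (0.928). Ift46 read 7.04, 6.70 and 6.28 in cones, against 6.76, 6.49 and 6.56 in starburst cells, and the groups overlapped. Ift20, which also acts at the Golgi, read 9.21, 8.36 and 8.42 in cones, against 9.22, 9.24 and 9.26 in starburst cells (-0.58 ± 0.22, 0.0905). The starburst arrays lay within 0.04 of each other and above all cone arrays, but the gene was not called. Ift27, Ift52 and Ift43 differed by 0.09 ± 0.45, 0.21 ± 0.27 and 0.49 ± 0.31, with adjusted p-values of 0.931, 0.685 and 0.345.

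A wider list of 74 further cilium genes was read in the same fit, of which 69 were measured and 60 tested. This list too was chosen with earlier results of these data known, so its counts are a description. In cones 7 were called higher and 1 lower, where 2.64% of all tested genes were called higher and 5.79% lower. The median difference was 0.17, against -0.04 over all tested genes. The 7 all belonged to the part of the list on the photoreceptor axoneme and the transport of lipid-modified proteins, a class known from photoreceptors and written down as such. Fam161a, a microtubule-binding protein of the connecting cilium, read 7.57, 7.42 and 6.93 on pure cone arrays, against 3.52, 3.64 and 3.76 on pure starburst arrays (3.67 ± 0.24, adjusted p = 3.7e-10). Unc119, a carrier that Arl3 unloads, read 11.20, 11.09 and 10.71 in cones, against 8.99, 9.28 and 8.74 in starburst cells (2.0 ± 0.25, 6.4e-06). Pde6d, the other such carrier, differed by 1.37 ± 0.37 (0.0152). The axonemal protein Rp1 was higher in cones by 2.43 ± 0.32, the cadherin Pcdh15 by 2.34 ± 0.27 and Tulp1, which takes part in protein transport to the outer segment, by 2.19 ± 0.32. Rp1l1 was the other gene called higher, and the ubiquitin ligase Trim32 the one called lower. Over the 18 mixture arrays described below, 5 genes of the wider list had a called positive slope (Fam161a, Rp1, Rp1l1, Tulp1 and Unc119) and 2 a negative one (Hspb11 and Kif3c). Of all tested genes, 1.27% had a called positive slope and 4.44% a called negative one. Pde6d (1.26, adjusted p = 0.142) and Pcdh15 (0.85, 0.202) were not called there.

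The next comparison set Arc amacrine cells against the same pure starburst arrays as above. In Arc cells 3 of 31 members were called higher and 0 lower, where 2.16% of all tested genes were called higher and 1.39% lower. At an adjusted p alone, limma called 4 members higher and 0 lower, against 3.50% and 2.24% of all genes. The median difference was 0.05 over the members and 0.03 over all tested genes. Kif3a read 6.50, 6.39 and 6.81 on Arc arrays, against 5.13, 4.56 and 5.36 on pure starburst arrays, a difference of 1.55 ± 0.32 (2.92-fold, adjusted p = 0.00366). All Arc arrays lay above all others of the series for Kif3a, whose mixture arrays read 3.72 to 5.33. Ahi1 (jouberin), a transition zone protein also found in neuronal cell bodies, read 4.68, 4.03 and 4.48 in Arc cells, against 3.02, 3.06 and 3.05 in starburst cells (1.35 ± 0.24, 0.000731), and 2.75 to 3.97 over the mixtures. Ift57 read 5.56, 5.43 and 5.98 in Arc cells, against 4.07, 3.30 and 3.79 in starburst cells (1.94 ± 0.51, 0.0224), but its call was lost without Arc replicate 1 (0.0619) or 3 (0.0950), without pure starburst replicate 2 (0.107) or 3 (0.0544), and without the third arrays of all groups (0.166). Ift81 was higher by 0.98 ± 0.22 (0.00801), just under the minimum. Of the wider list 1 gene was called, Kifap3, the adaptor that joins the kinesin-2 motor to its cargo.

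Against pure cones, Arc cells had 1 member called higher and 5 lower of 31, where 7.83% of all tested genes were called higher and 2.51% lower. At an adjusted p alone these counts were 2 and 7, against 13.3% and 4.45% of all genes by limma. The median difference was -0.19 over the members and 0.07 over all tested genes. Kif3a was higher by 2.28 ± 0.32 (4.85-fold, adjusted p = 2.2e-05), and of the wider list Kifap3 and Trim32 were called higher and 6 genes lower (Fam161a, Pcdh15, Pde6d, Rp1, Tulp1 and Unc119). Rpgrip1 read 3.27, 2.75 and 3.01 on Arc arrays, against 6.05, 5.45 and 5.69 on pure cone arrays (-2.72 ± 0.28, 3.1e-07). Mak read 2.65, 2.60 and 2.61, all under the filter, against 5.33, 5.19 and 4.15 (-2.27 ± 0.38, 0.000145). Cep290 differed by -1.33 ± 0.20 (4.1e-05), with all Arc values under the filter. Arl3 read 9.89, 9.79 and 9.55 in Arc cells, against 11.02, 10.94 and 10.69 in cones (-1.14 ± 0.18, 8.4e-05), and 9.66 to 10.86 over the mixtures.

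Bbs12 lay between the other cell types in Arc cells, at 5.71, 4.89 and 5.91. It was lower than in cones by 1.84 on the log2 scale (-1.84 ± 0.52, adjusted p = 0.0153), which was lost without pure cone replicate 1 (0.0666) or Arc replicate 2 (0.0845), and its difference from starburst cells was not called (1.31 ± 0.52, 0.180). Ift57 had nearly the same level in Arc cells and cones (-0.01 ± 0.51, 0.993). Bbs9 read 3.84, 4.51 and 3.59 in Arc cells and was not called against cones (-1.60 ± 0.60, 0.0693). Without pure cone replicate 3, limma called 8 members lower in place of 5, adding Bbs9, Lca5 and Ift43.

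The mixtures gave a reading on arrays that the pure groups do not enter, although their cells may stem from the same pools of mice. Deviations from the group means of the pure cone and 183-cone arrays with the same replicate number correlated across genes at 0.20, 0.13 and 0.30. Over the 18 arrays of the 6 mixtures a slope of log2 level on cone share was fitted, given as the log2 difference for a share going from 0 to 1. In this fit 3 of 31 members were called with a positive slope and 0 with a negative one, where 1.27% and 4.44% of all tested genes were called. They were Bbs12 (3.06 ± 0.72, adjusted p = 0.0127), Mak (2.46 ± 0.51, 0.00576) and Rpgrip1 (2.20 ± 0.41, 0.00239). Without the 75-cone mixture, an alternative chosen after the values were seen, Mak (2.11, 0.0486) and Rpgrip1 (1.85, 0.0258) were called and Bbs12 was not (2.30, 0.0616). Bbs9 had a slope of 1.92 ± 0.84 (0.178), Ift57 of 1.27 ± 0.66 (0.274) and Cep290 of 0.78 ± 0.26 (0.0788), and none of these was called. At an adjusted p alone the counts by limma were 3 and 0, against 1.60% and 5.84% of all genes. The median slope was 0.28 over the members and -0.06 over all tested genes. Without the third arrays 5 members were called, the added ones being Arl3 and Bbs5.

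**Figure D3:**
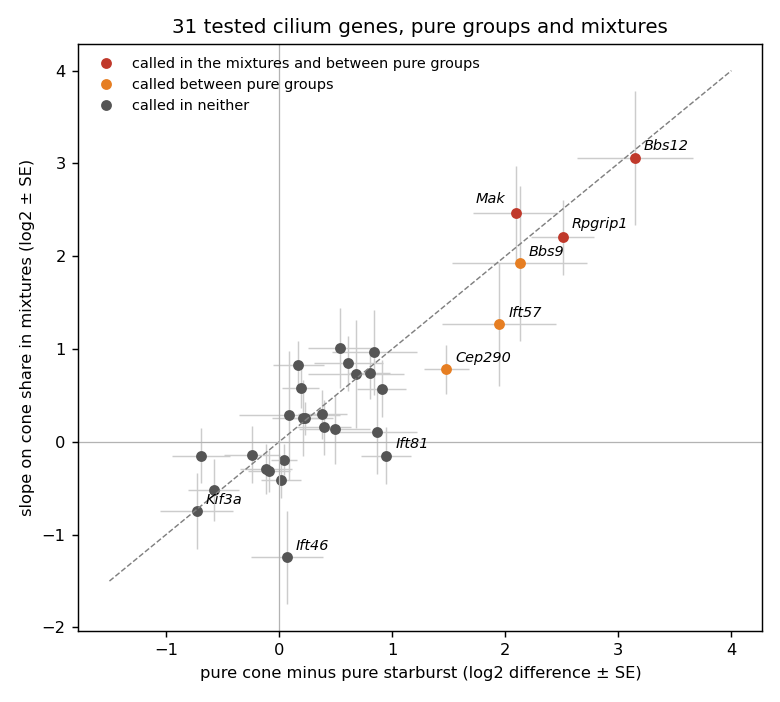
Slope on cone share over the 18 mixture arrays (vertical, log2 for a share from 0 to 1) against the difference between pure cones and pure starburst cells (horizontal, log2), with SE, for the 31 tested members; the dashed line marks equal values. Bbs12, Mak, Rpgrip1 and Bbs9 lie near the line, and Ift46 (-1.25 in the mixtures, 0.07 between pure groups) and Ift81 (-0.15 and 0.95) lie far under it.

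Some members that were not called had unlike values in the mixtures and between the pure groups, a contrast that was not tested. Ift46 had the lowest slope of all, -1.25 ± 0.50 (adjusted p = 0.148), and its 18 mixture arrays spread over 4.78 to 6.97. The arrays with 157 cones read 5.68, 4.78 and 5.80, while the lowest of the pure cone and pure starburst arrays read 6.28. Ift81, higher in cones between the pure groups, had a slope of -0.15 ± 0.30 (0.830). Tmem67 (meckelin) had a slope of 0.83 ± 0.26 (0.0561) after a difference of 0.17 between the pure groups. However, Tmem67 exceeded the filter on only 4 of 27 arrays. Its mixture arrays read 1.87 to 3.09 (median 2.48), near the array background.

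Along the titration itself, whose ends are the pure groups, 6 of 31 members had a called positive slope and 0 a negative one (2.55% and 5.65% of all tested genes), and they were the same 6 genes as between the pure groups, with slopes of 1.37 (Cep290) to 2.89 (Bbs12). At an adjusted p alone the counts by limma were 9 and 0, against 4.66% and 11.2% of all genes. With 0, 50, 100, 150 and 200 cone cells, Bbs12 averaged 4.20, 5.38, 6.22, 6.30 and 7.34 on the log2 scale, and Rpgrip1 3.22, 3.55, 4.35, 4.73 and 5.73. Mak averaged 2.80, 3.00, 3.91, 4.03 and 4.89, and Cep290 2.19, 2.46, 2.62, 2.92 and 3.67. The means of these 4 genes were higher at each step. Bbs9 (3.45, 4.56, 5.36, 5.92 and 5.58) and Ift57 (3.72, 4.94, 5.06, 5.84 and 5.67) were highest at 150 cones. In the X mixtures with 75, 157 and 183 cones, Bbs12 averaged 4.59, 6.97 and 6.94, Rpgrip1 3.36, 4.37 and 4.94, and Mak 2.81, 3.88 and 4.74. The 75-cone mixture lay below the 50-cone mixture for all 3, as it did for the cone markers.

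**Figure D4:**
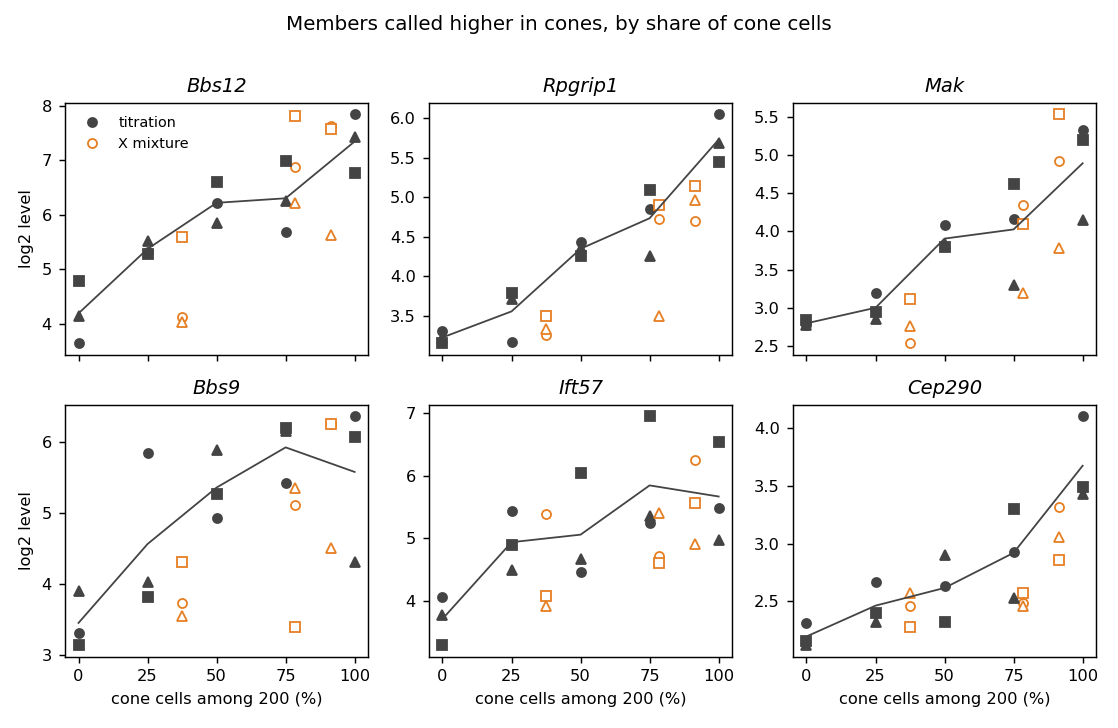
Log2 levels of the 6 members called higher in cones on each array, by the percentage of cone cells among 200; filled symbols are titration arrays (line: group means), open symbols X mixtures, and circle, square and triangle are replicates 1, 2 and 3. The means of Bbs12, Rpgrip1, Mak and Cep290 are higher at each titration step, and the open symbols at 37.5% lie at or near the level of pure starburst cells for Mak and Rpgrip1.

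On the linear scale, each mixture was placed between the pure groups, with the starburst mean at 0% and the cone mean at 100%. A cone share of 50% would read 50 if both cell types gave equal RNA and array levels were proportional to RNA. Rpgrip1 stood at 5.8, 24.7 and 40.4% in the mixtures with 25, 50 and 75% cones, Mak at 4.4, 33.0 and 42.7%, Cep290 at 11.4, 19.4 and 37.4%, and Bbs12 at 14.8, 37.8 and 43.3%. The median over all 328 genes called higher in cones was 18.2, 34.2 and 50.8%, also under the stated share at each step. These genes were called on the same pure arrays that set 0 and 100%, which can lower the positions, so they are a description. Bbs9 (39.9, 69.5 and 113.2%) and Ift57 (42.7, 56.8 and 124.9%) stood higher, with a wide spread between arrays. Bbs9 was at 102.5% on the first array with 25% cones and at 6.1 and 11.1% on the others, and Ift57 was at 254.8% on the second array with 75% cones and at 56.7 and 63.4% on the others. In the X mixtures with 37.5, 78.5 and 91.5% cones, Rpgrip1 stood at 2.0, 29.6 and 48.4%, Mak at 0.6, 34.8 and 93.9% and Bbs12 at 5.4, 79.3 and 83.9%, beside medians of 6.9, 41.4 and 74.0% over the 328 genes. The 6 cone markers, not placed on this scale, had a summed log2 level of 11.81 to 12.10 with 25% cones. In pure cones it was 12.20 to 13.50. What sets these positions was not tested.

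Replicate arrays of one group differed more for these genes in cone-rich samples. The median SD of the 31 tested members was 0.367 among pure cone arrays, 0.187 among pure starburst arrays and 0.191 among Arc arrays, beside 0.254, 0.209 and 0.183 over all tested genes. The third array had the lowest cone marker level in the 5 groups named above, while with 100 cones it had the highest (12.77, against 12.72 and 12.54). Mak was lowest on the third array among pure cones (4.15), with 183 cones (3.78, against 4.92 and 5.53), with 157 (3.19, against 4.34 and 4.10) and with 150 (3.30, against 4.16 and 4.62). With 75 cones it was lowest on the first array (2.54, against 3.12 and 2.76). Bbs12 read 5.64 on the third array with 183 cones (7.62 and 7.58 on the others), but it read 7.42 on the third pure cone array, between 7.84 and 6.77. Without the third arrays of all groups the pure cones differed from pure starburst cells by 2.45 for Mak, 2.99 for Bbs9, 2.32 for Ift57, 2.53 for Rpgrip1, 1.56 for Cep290 and 3.09 for Bbs12. All 6 remained called (adjusted p 3.9e-05 to 0.0323), with Bbs5 and Lca5 added.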

How the data were processed

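The measurements are the deposited log2 values, which per the submitters' processing notes the authors made by RMA with the R package oligo (R 2.11.1; build mm9). The sources used here do not give which arrays were normalized together. The probe table names 1 gene for 19446 of 22347 probe sets, several for 735 and none for 2166; where a gene had more than 1 probe set (133 genes), the brightest on average stood for it. Array medians were 2.78 to 2.89, and no arrays were duplicates. Arrays have no counts, so their number limits the precision.

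One mean per group was fitted over the 27 arrays (limma 3.58.1, R 4.3.3; lmFit and eBayes, two-sided, 18 residual degrees of freedom), and slopes on cone share over the 15 titration and the 18 mixture arrays. The steps were tested on simulated data. Members and lists were chosen with earlier results of these data known. The genes named with values are, by rule, members called in any comparison, the 4 uncalled ones with the largest and the 4 with the smallest difference between the pure groups, and the 6 genes of the wider list with the largest one; members under the filter are named. Values of further members, the other called genes of the wider list, the motifs and the removal of the 75-cone mixture were chosen after the data were seen. Alternatives were the filter, the probe set rule, the spread model, array weights, normalization, the arrays fitted, the replicate block and single arrays left out.

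In the study's design the replicate number marks repeated sorts from different mice for the titration, so it pairs those arrays. Deviations from group means of arrays with the same number correlated at -0.03 to 0.23 over 30 pairs (median 0.02). For the X mixtures and Arc cells the sources do not say so; pairs with an X mixture correlated at -0.02 to 0.30 (54 pairs, 13 over 0.1) and pairs with Arc cells at -0.02 to 0.10 (24 pairs).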

Additional observations from a re-analysis of the deposited data

How the results depend on the processing

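Of 32 results on single members, 23 kept their call, or lack of one, under each alternative run on them, including the one added later. Of the 32, 0 reversed, and those that changed are given beside their results. The 23 include the 4 uncalled members with the smallest difference between the pure groups, whose lack of a call was little open to change. Under the stricter filter on dim genes Cep290, Lca5, Ift140, Ift88, Spata7, Ift74, Nphp4, Rpgr, Tmem67 and Dync2h1 were not tested. With the replicate block, 6 members were called higher in cones than in starburst cells, 3 higher in Arc than in starburst cells, 1 higher and 5 lower in Arc cells than in cones, 6 along the titration and 3 over the mixtures, so that no call of a member changed. Leaving out arrays gave 4 to 9 members higher in cones than in starburst cells (6 with all arrays), 2 to 4 higher in Arc than in starburst cells (3), 1 to 2 higher (1) and 4 to 8 lower (5) in Arc cells than in cones, 6 to 8 along the titration (6) and 3 to 5 over the mixtures (3). At an adjusted p alone, 2 members were higher in Arc cells than in cones, Ahi1 being the added one. Outside the comparison of Arc cells with cones, members called in the opposite direction numbered 0 throughout. Fits to the arrays compared alone are already the main ones for the slopes. Groups of 3 arrays, values near the array background for members such as Cep290, Mak, Lca5 and Tmem67, and the pooled mice limit what can be told.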
